A study of Homo sapiens with 6 samples.

Results

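Small nucleolar RNA (snoRNA) host genes and abundant long noncoding RNA genes were described across 6 RNA sequencing libraries from SW480, an established cell line that was derived from a human colorectal adenocarcinoma. The members were chosen by name: every gene whose symbol is SNHG (small nucleolar RNA host gene) followed by a number, together with GAS5, ZFAS1, DANCR, MALAT1, NEAT1, CYTOR, MIR22HG, MIR17HG, H19, TUG1 and NORAD. The table held 39 of them, 28 numbered SNHG genes and 11 others, among 60664 genes. All libraries came from SW480 cells labelled wild type, of which 3 libraries were from cells given Amuc_0904 and 3 from cells given buffer. Names of this form are given to genes of Akkermansia muciniphila, a bacterium of the human gut, but the labels state neither what was prepared from it, nor a dose, nor an exposure time. The labels do not say whether replicates were separate cultures, so p-values measure only the spread between these libraries, which may be technical, and they come from a single cell line. The stated purpose was to find the genes that differ between the treatments. In bulk RNA, fewer cells of a kind and less RNA per cell cannot be told apart.

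A snoRNA host gene carries snoRNAs in its introns. After splicing, the introns are trimmed to snoRNAs, which guide chemical modification of ribosomal RNA and of some small RNAs. The joined exons form a long RNA that is often degraded on ribosomes by nonsense-mediated decay. Many such hosts start with a run of pyrimidines (C or T), the 5′ terminal oligopyrimidine (5′ TOP) start also carried by ribosomal protein genes. The other members work differently. MALAT1 resides in nuclear speckles, NEAT1 is the scaffold of paraspeckles, NORAD is a cytoplasmic RNA linked to genome stability, and MIR17HG, MIR22HG and H19 are the primary transcripts of microRNAs.

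The annotated starts of the members were searched for such a run of pyrimidines. RefSeq (GRCh38.p14) gave starts for 34 of the 39 members. Shown are 40 bases around the annotated start, 20 before it and 20 from it on, for the 4 members with a start in that table that had the smallest p in the comparison below. The capitals mark the longest run that begins with C within 5 bases of the start and continues in C or T for at least 5 bases in all.
SNHG5, chr6:85678714-85678753, minus strand: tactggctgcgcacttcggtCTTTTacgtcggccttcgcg
ZFAS1, chr20:49278622-49278661, plus strand: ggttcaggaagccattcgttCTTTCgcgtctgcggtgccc
SNHG7, chr9:136728165-136728204, minus strand: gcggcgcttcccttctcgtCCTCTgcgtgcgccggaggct
MIR17HG, chr13:91347667-91347706, plus strand: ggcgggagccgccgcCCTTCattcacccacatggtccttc
In SNHG5 and ZFAS1 the run began at the first transcribed base. In MIR17HG it ended before that base, so it lies in the promoter and not in the RNA. Searched on the transcribed strand, 15 of 35 member starts (42.9%) held such a run, as did 21.1% of all 35116 starts in the RefSeq table and 69.8% of the 86 starts of ribosomal protein genes. Among the starts of the SNHG genes, GAS5, ZFAS1 and DANCR, 13 of 27 held it. These are matches of letters at annotated starts and describe no measured start site.

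MIR17HG, the member with the smallest p in the comparison, is the host of the miR-17-92 cluster, whose microRNAs repress cell cycle brakes and apoptosis genes and whose host is a known target of MYC. The 6 mature microRNAs for which the cluster is named are given from RefSeq, with the seed (bases 2 to 8) in capitals, to show what the host encodes.
miR-17-5p: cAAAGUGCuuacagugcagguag
miR-20a-5p: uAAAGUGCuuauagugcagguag
miR-18a-5p: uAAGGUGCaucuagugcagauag
miR-19a-3p: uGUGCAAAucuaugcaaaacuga
miR-19b-3p: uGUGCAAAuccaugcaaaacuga
miR-92a-3p: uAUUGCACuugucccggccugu
miR-17-5p and miR-20a-5p share 1 seed, and miR-19a-3p and miR-19b-3p share another. In the table of gene expression the precursor genes of the cluster (MIR17, MIR18A, MIR19A, MIR20A, MIR19B1 and MIR92A1) were listed at 0 in all 6 libraries, so only the host transcript was measured.

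Expression was deposited as TPM (transcripts scaled to a fixed sum per library), which divides by transcript length and so allows levels of different genes to be set side by side. Of all genes, 14421 reached 1 TPM in 3 or more libraries and were tested with limma on log2(TPM + 1). TPM keeps no read number, so the depth is unknown and no counting interval is given. Because of the added 1, fold changes of weakly expressed genes are understated. The libraries held between 14244 and 14586 genes at 1 TPM or more. Mitochondrially encoded RNA made up 9.86% to 12.8% of TPM and ribosomal protein mRNA 18.5% to 21.5%. The slope of log2 expression with transcript GC content (the share of G and C) was 0.074, 0.162 and 0.123 per 10 percentage points in buffer replicates 1 to 3 and 0.028, 0.071 and -0.043 in Amuc_0904 replicates 1 to 3. All treated slopes were below all buffer slopes, so treatment and GC content cannot be told apart across all genes, and the plot of log2 fold changes shows every tested member also with the GC trend of each library removed. In the text that value is given where it changes the sign of a log2 fold change or moves it by 0.1 or more, and for some other members. Of 8 epithelial markers 7 reached 1 TPM, with a summed level of 7910 to 8150 TPM in buffer and 7090 to 7380 TPM in treated libraries. CDH1, the E-cadherin gene, was the 1 marker past the threshold, with means of 7.01 and 3.80 TPM in the buffer and treated groups (adjusted p = 0.0444 in limma). That call ended without any single library (adjusted p from 0.0609 to 0.143), with the replicate block (0.0928), with no filter on low TPM (0.159), with ribosomal protein and mitochondrial genes left out (0.0585), and with centred libraries (0.0624), quantile normalization (0.0567), GC trend removal (0.0558) or length trend removal (0.0559). The summed levels of 8 fibroblast, 9 leukocyte and 6 endothelial markers did not exceed 3.77, 3.11 and 0.88 TPM in any library, and 2 markers of each of these lists were listed at 0 throughout.

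Together the members held 4194, 3954 and 4369 TPM in the buffer libraries and 4284, 4199 and 4381 TPM in the treated libraries, about 0.42% of the total. The ranges overlapped, and the ratio of the means was 1.03. SNHG29 was the most abundant member (mean of all libraries 614.6 TPM), followed by MALAT1 (537.7), SNHG5 (465.9), GAS5 (370.2), DANCR (277.9) and ZFAS1 (274.9). NEAT1 (181.1 TPM), SNHG19 (155.1), SNHG6 (152.5) and NORAD (136.4) completed the 10 highest. MALAT1, the second most abundant, had the widest spread between treated libraries of these 10 in TPM (SD 133.4), and the order of SNHG29 and MALAT1 was not fixed, since MALAT1 was the higher in buffer replicate 2 and in Amuc_0904 replicate 3. Of the 39 members, 34 were tested. The 5 that were not are SNHG31 (at most 1.39 TPM in a library), SNHG14 (0.63), H19 (0.54), SNHG27 (0.38) and SNHG18, listed at 0 in 5 of the libraries and at 0.06 TPM in the other. SNHG14 is the host of the imprinted SNORD115 and SNORD116 clusters, and H19 is an imprinted fetal growth RNA.

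No member passed the threshold of an adjusted p of 0.05 in limma, 0 in either direction, while 1.37% of all tested genes did (0.368% higher and 0.999% lower). The smallest adjusted p among members was 0.064. At an unadjusted p under 0.05 there were 7 of 34 members (20.6%), next to 20.8% of all tested genes. By direction, 6 of the 7 were higher in treated libraries and 1 was lower, where 4.49% of all genes were higher and 16.3% lower at that level. By the ranges alone, all 3 treated libraries lay above all 3 buffer libraries for 8 members (23.5%, background 7.0%) and below them for 1 (2.94%, background 20.1%). Among all tested genes with a mean of at least 100 TPM, a comparison added after the values were seen, these shares were 14.4% and 19%. After GC trend removal 8 members (23.5%) lay above, with a background of 12% over all genes and 26.5% over genes of at least 100 TPM, and 0 lay below, with a background of 11.3%. The 8 were not the same genes on both scales: GAS5 and SNHG16 were separate only as deposited, SNHG1 and SNHG17 only after GC trend removal. The members' share was above that of all genes on both scales, and above that of genes of at least 100 TPM as deposited but under it after GC trend removal, although most members were below 100 TPM. On the same scale 0 members passed in limma (0.819% of all genes), the smallest adjusted p was 0.0885, and 7 members had an unadjusted p under 0.05 (17% of all genes). The median log2 fold change was 0.0061 over the 34 tested members and -0.062 over all tested genes.

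**Figure D1:**
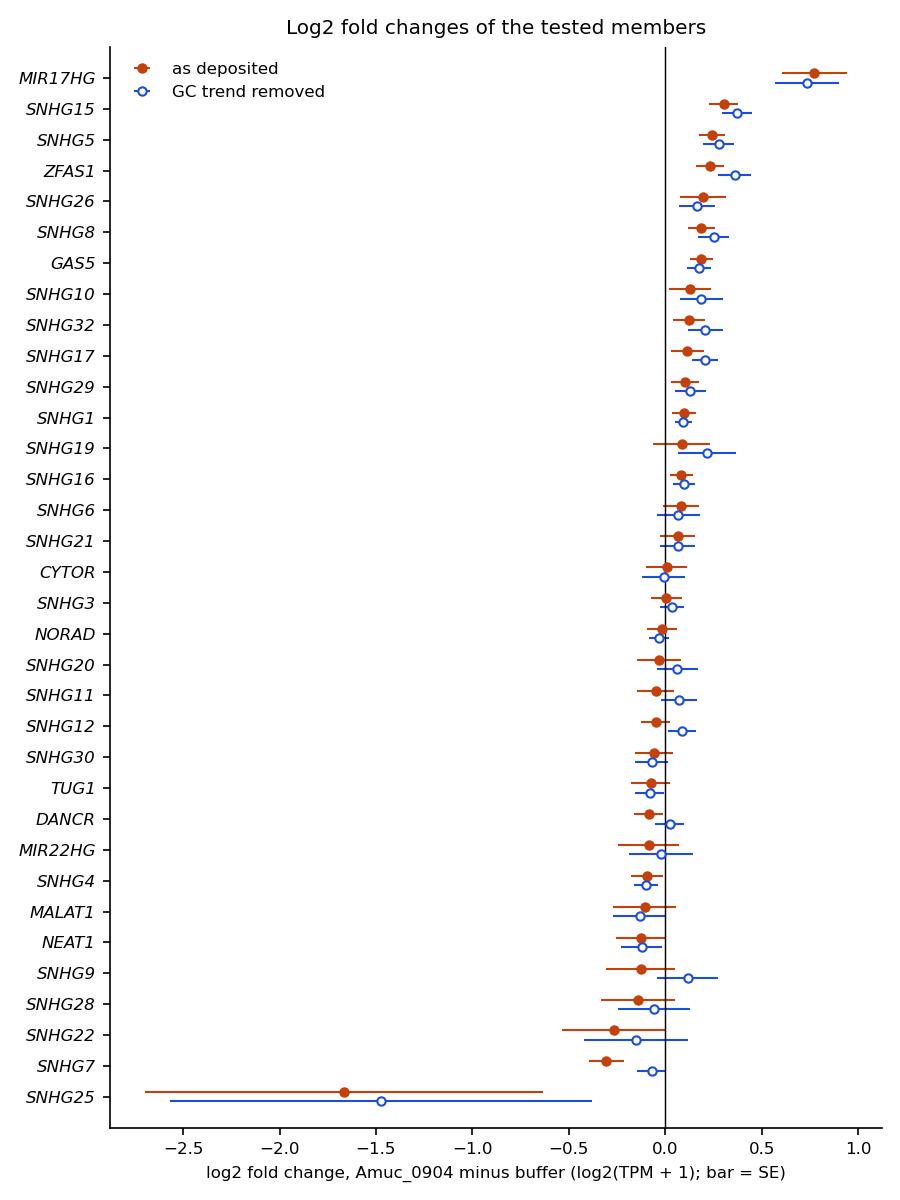
Log2 fold change of each of the 34 tested members (Amuc_0904 minus buffer on log2(TPM + 1), x axis; bars are the standard error of the limma fit), as deposited (filled) and with each library's GC trend removed (open). MIR17HG stood at 0.77, most other members lay between -0.31 and 0.31, and SNHG7 moved from -0.31 to -0.07 with GC removal.

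MIR17HG was listed at 1.98, 1.95 and 2.49 TPM in the buffer libraries and at 5.45, 3.36 and 4.44 TPM in the treated libraries. All treated values lay above all buffer values, though the treated libraries spread from 3.36 to 5.45 TPM. The group means were 2.14 ± 0.304 and 4.42 ± 1.05 TPM (SD, 3 libraries per group), a ratio of 2.06. The limma log2 fold change was 0.77 (SE 0.17, adjusted p = 0.064), so the difference was not past the threshold. Without single libraries it ranged from 0.64 to 0.92, with adjusted p from 0.074 to 0.215, and with the GC trend removed it was 0.73 (adjusted p = 0.106). MIR17HG (ENSG00000215417) lies on chromosome 13 from 91347820 to 91354579 in GENCODE 29 (GRCh38) and overlaps no gene other than the microRNA genes it holds, and its RefSeq start lies upstream of the GENCODE start. It had the lowest GC content of the tested members (37.7%), on the side of the GC range where the median gene was slightly higher in treated libraries. Among genes below 38% GC that median log2 fold change was 0.057, against 0.77 for MIR17HG. MYC, the transcription factor known to activate this host, had means of 154 ± 5.80 and 179 ± 12.6 TPM in the buffer and treated groups (log2 fold change 0.21, limma adjusted p = 0.133). ANXA3, the most abundant gene of the list of members' partners that holds MYC, was at 174 and 194 TPM (limma adjusted p = 0.215), and 0 of the 12 tested genes of that list passed, with a median of -0.05.

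SNHG15, host of SNORA9, was listed at 52.07, 57.85 and 56.58 TPM in buffer and at 73.26, 67.93 and 64.78 TPM in treated libraries, again without overlap. Its log2 fold change was 0.30 (SE 0.073, limma adjusted p = 0.078) and 0.37 with the GC trend removed (adjusted p = 0.0885). With libraries weighted by their quality in limma, SNHG15 became the 1 member past the threshold (log2 fold change 0.34, adjusted p = 0.0439), where 2.96% of all genes passed. SNHG15 (ENSG00000232956), on chromosome 7 from 44983023 to 44986961, overlaps no gene other than its snoRNA.

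Among the most abundant hosts, SNHG5, GAS5, ZFAS1 and SNHG8 showed the same order of groups with smaller differences. SNHG5, host of the SNORD50 snoRNAs, was listed at 430.62, 393.47 and 456.89 TPM in buffer and at 530.40, 491.92 and 491.86 TPM in treated libraries. This was a ratio of means of 1.18 (log2 fold change 0.24, SE 0.069, limma adjusted p = 0.106). GAS5, whose introns carry a series of SNORD RNAs and whose level is known to climb when growth stops, was at 349.26, 326.43 and 363.41 TPM in buffer and at 403.56, 384.61 and 393.83 TPM in treated libraries (log2 fold change 0.19, SE 0.059, limma adjusted p = 0.130). The treated libraries were the tighter group for GAS5, with an SD of 9.48 TPM against 18.7 in buffer. ZFAS1, host of the SNORD12 family, was at 266.99, 229.05 and 262.57 TPM in buffer and at 309.91, 294.76 and 285.92 TPM in treated libraries. Its log2 fold change was 0.23 (SE 0.072, limma adjusted p = 0.125), and 0.36 with the GC trend removed (adjusted p = 0.119). SNHG8, host of SNORA24, was at 109.44, 101.16 and 110.46 TPM in buffer and at 131.28, 119.57 and 115.31 TPM in treated libraries (log2 fold change 0.19, limma adjusted p = 0.181). In all 4 genes the ranges were separate as deposited and the adjusted p missed the threshold. With the GC trend removed the GAS5 groups overlapped, at 8.541 in Amuc_0904 replicate 3 and 8.549 in buffer replicate 3 (log2 scale). ZFAS1 overlaps ZNFX1 on the other strand and GAS5 overlaps ZBTB37 and GAS5-AS1, and without a stated strand protocol their reads cannot be told apart from those of these neighbours. The same limit holds for other members that overlap a gene on the other strand, among them SNHG7 (FAM69B) and SNHG29 (LRRC75A).

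**Figure D2:**
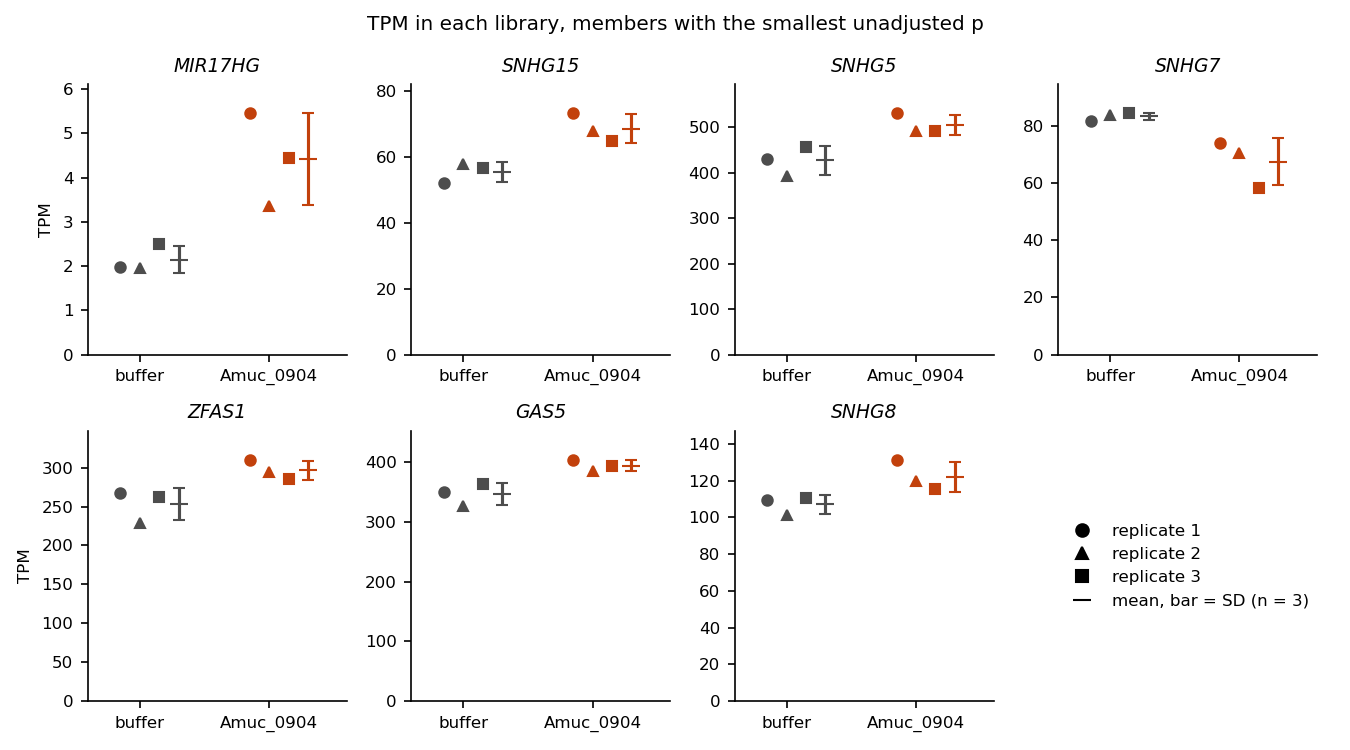
TPM of the 7 members with an unadjusted p under 0.05 in each library (points, shaped by replicate number; y axes start at 0), with the mean and SD of each group of 3 beside them. For MIR17HG, SNHG15, SNHG5, ZFAS1, GAS5 and SNHG8 every treated library lies above every buffer library, and for SNHG7 every treated library lies below.

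SNHG7 was the 1 member whose treated libraries all lay below the buffer libraries. It is the host of the SNORA17 snoRNAs. Its level was 81.88, 83.79 and 84.42 TPM in buffer and 73.91, 70.42 and 58.33 TPM in treated libraries, with a log2 fold change of -0.31 (SE 0.090, limma adjusted p = 0.111). The buffer libraries were close together and Amuc_0904 replicate 3, the library with the lowest GC slope, was the lowest. At 65.9% GC, SNHG7 was among the richest members in G and C, and the median log2 fold change of all genes between 62% and 66% GC was -0.20. With the GC trend removed SNHG7 stood at -0.07 (SE 0.076, adjusted p = 0.674), and its treated and buffer libraries overlapped. SNHG9, host of SNORA78 and the most GC-rich tested member (66.5%), was at -0.13 as deposited and at 0.12 without the GC trend (limma adjusted p = 0.730 and 0.743). Its libraries ranged from 28.61 to 47.45 TPM in buffer and from 30.20 to 40.74 TPM in treated cells.

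**Figure D3:**
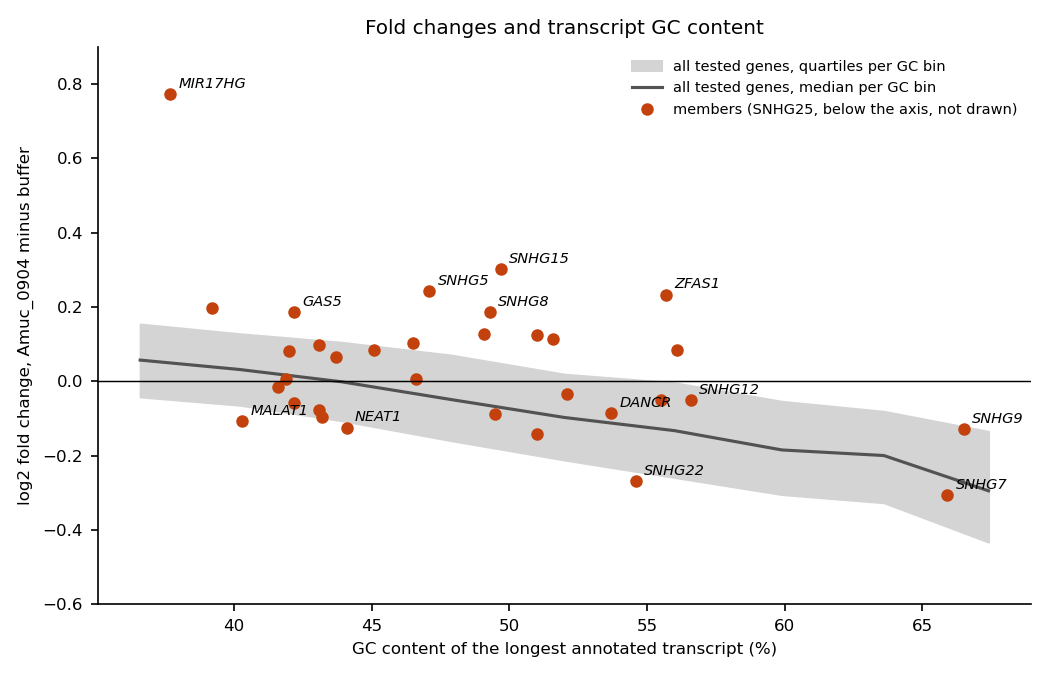
Log2 fold change (Amuc_0904 minus buffer, y axis) against GC content of the longest annotated transcript (x axis), for the members (points) and for all tested genes (line and band: median and quartiles per GC bin). The median of all genes falls from 0.057 in the bin below 38% GC to -0.295 above 66%, SNHG7 lies near that line, and MIR17HG, SNHG15 and ZFAS1 are among the members above the band. SNHG25 is off the axis.

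The remaining abundant hosts differed less. SNHG29, host of SNORD49A, SNORD49B and SNORD65 and the highest member, was at 630.00, 542.18 and 607.66 TPM in buffer and at 666.54, 635.91 and 605.29 TPM in treated libraries (log2 fold change 0.10, SE 0.071, limma adjusted p = 0.457). DANCR, host of SNORA26, was at 260.84, 289.35 and 309.03 TPM in buffer and at 269.75, 283.28 and 255.10 TPM in treated libraries. Its log2 fold change was -0.09 as deposited and 0.02 with the GC trend removed (limma adjusted p = 0.557 and 0.909), so it had no stable sign. SNHG6, host of SNORD87, was at 143.28, 131.54 and 170.89 TPM in buffer and at 161.17, 157.23 and 150.89 TPM in treated libraries (log2 fold change 0.08, limma adjusted p = 0.661). SNHG19, host of SNORD60, was at 114.84, 166.05 and 173.83 TPM in buffer and at 167.29, 166.98 and 141.57 TPM in treated libraries. Buffer replicate 1 was the lowest library for SNHG19, and without it the log2 fold change turned from 0.08 to -0.10. With the GC trend removed the value was 0.22 (limma adjusted p = 0.497). For these 4 hosts the groups overlapped. SNHG1, host of SNORD22 and SNORD25 to SNORD31, had means of 126.7 and 135.6 TPM, SNHG32, host of SNORD48 and SNORD52, 118.3 and 129.2 TPM, and SNHG16, host of the SNORD1 family, 74.5 and 78.9 TPM in buffer and treated libraries. SNHG16 was the tightest of these in treated cells (SD 0.770 TPM), and its treated libraries lay above the buffer libraries by 1.03 TPM or more (limma adjusted p = 0.453). With the GC trend removed the SNHG16 groups overlapped.

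Hosts at lower levels gave a mixed picture. SNHG17 (46.7 and 50.5 TPM in buffer and treated means), SNHG10 (22.6 and 24.5) and SNHG21 (11.1 and 11.6) were slightly higher in treated means, and SNHG12 (24.9 and 24.1), SNHG11 (13.3 and 12.8), SNHG20 (13.5 and 13.3) and SNHG30 (14.6 and 13.9) slightly lower. With the GC trend removed the log2 fold change of SNHG12 turned from -0.05 to 0.09, that of SNHG11 from -0.05 to 0.07 and that of SNHG20 from -0.03 to 0.06, so the direction of these 3 depended on the scale. SNHG17 moved from 0.11 to 0.20 (limma adjusted p = 0.477 and 0.202) and SNHG22 from -0.27 to -0.15, without a change of sign. SNHG3 (43.7 and 43.9 TPM) and SNHG4 (69.3 and 65.1 TPM) share their loci with the protein-coding genes RCC1 and MATR3 on the same strand, and SNHG20 with SEC14L1, so reads may be divided between them with error. SNHG26, at 3.67 and 4.35 TPM, was the lowest-expressed snoRNA host with separate ranges, SNHG22 was at 4.07 and 3.06 TPM, and SNHG28 at 1.37 and 1.13 TPM. Limma adjusted p for the hosts of this paragraph lay between 0.388 and 0.976. Of the 27 tested members that are numbered SNHG genes, GAS5, ZFAS1 or DANCR, 16 had a positive log2 fold change, with a median of 0.08, where 37.5% of all tested genes were positive. Of the 10 with a mean of at least 100 TPM, a level set after the values were seen, 9 were positive, while 49.8% of all tested genes at that level were. Both values are as deposited. Among the 9, SNHG19 turned to -0.103 without buffer replicate 1 and SNHG6 to -0.000993 without buffer replicate 2. Ribosomal protein mRNA, which shares the 5′ TOP start with many hosts, held 19.1%, 18.5% and 20% of TPM in buffer replicates 1 to 3 and 21.5%, 21% and 19.3% in Amuc_0904 replicates 1 to 3, and its part in the hosts' values was not tested.

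SNHG25 stood apart for a single library. It was listed at 14.84, 10.49 and 247.49 TPM in buffer and at 11.66, 17.49 and 5.06 TPM in treated libraries. Buffer replicate 3 was far above the other 5, which overlapped. The log2 fold change of -1.66 (SE 1.03, limma adjusted p = 0.397) became -0.26 without that library (adjusted p = 0.771). At 278 bases SNHG25 (log2 fold change -1.47 with the GC trend removed) has the shortest longest transcript of all members, and 3 annotated snoRNA genes lie within it. SNORA50C, which lies inside an exon, was listed at 31.69 TPM in Amuc_0904 replicate 1 and at 0 in the other 5 libraries, so the high library for SNHG25 was not high for the snoRNA row.

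MALAT1 and NEAT1 differed more between treated libraries than between treatments. MALAT1 was listed at 625.33, 546.33 and 488.67 TPM in buffer and at 432.92, 457.42 and 675.24 TPM in treated libraries. NEAT1 was at 195.38, 196.85 and 171.67 TPM in buffer and at 155.14, 152.64 and 214.64 TPM in treated libraries. For both, Amuc_0904 replicates 1 and 2 were the lowest of all 6 libraries and replicate 3 the highest. The log2 fold changes were -0.11 (SE 0.16) for MALAT1 and -0.13 (SE 0.13) for NEAT1, with limma adjusted p of 0.757 and 0.624. Without Amuc_0904 replicate 3 they became -0.31 and -0.28 (adjusted p = 0.166 and 0.122), and without Amuc_0904 replicate 1 the value of MALAT1 was 0.01. Replicate 3 exceeded the mean of the other treated libraries by 0.60 for MALAT1 and 0.48 for NEAT1 on the log2 scale, more than for 97.7% and 95.9% of all tested genes. These gaps were 0.47 and 0.38 after GC trend removal. Replicate 3 also had the lowest GC slope of the 6 libraries and the largest mitochondrial share (12.8%), and the part of either in these values was not tested. Among proteins of nuclear speckles and paraspeckles, 0 of 15 tested genes passed in either direction, and the list median was -0.11 (-0.062 over all genes). Of the 15, 1 was positive, where 37.5% of all tested genes were. An unadjusted limma p under 0.05 was found for 5, where 20.8% of all tested genes had one. HNRNPK, an RNA-binding protein of paraspeckles, was at 628 and 622 TPM in buffer and treated libraries.

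**Figure D4:**
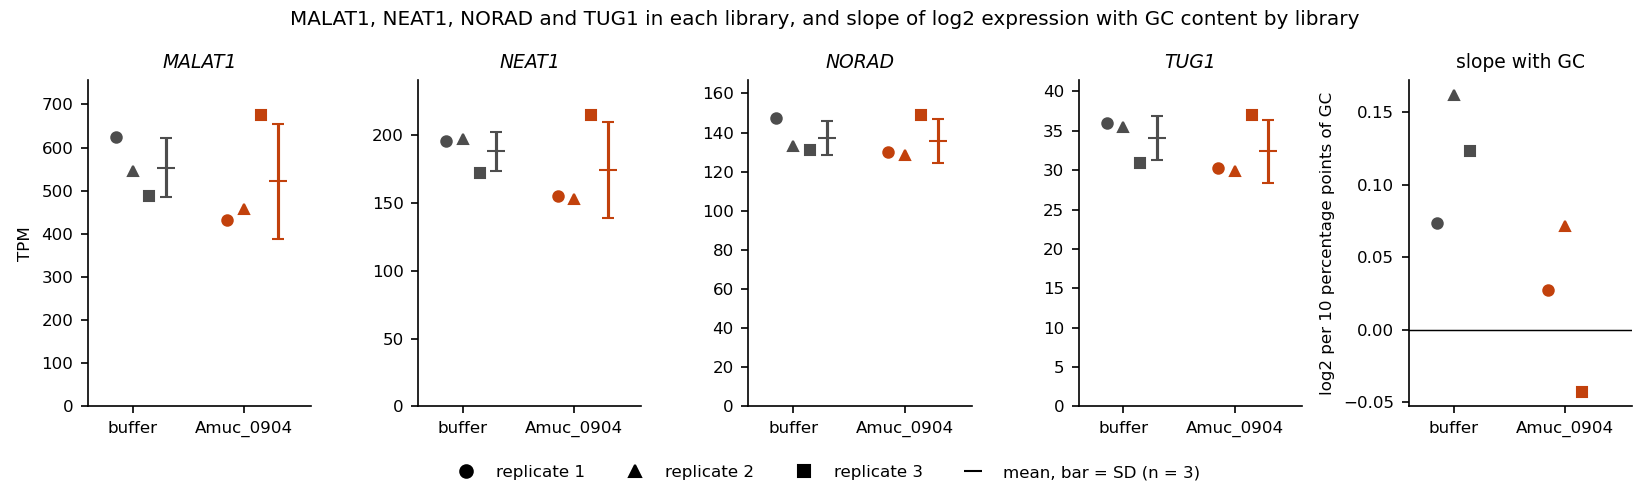
TPM of MALAT1, NEAT1, NORAD and TUG1 in each library (points, shaped by replicate number; mean and SD of each group of 3 beside them; y axes start at 0), and at the right each library's slope of log2 expression with GC content. In all 4 genes Amuc_0904 replicate 3 lies above every other library in TPM as deposited, and its slope of -0.043 is the lowest. With the GC trend removed (not drawn) it stayed the highest for MALAT1 and NEAT1 only.

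In NORAD and TUG1, too, Amuc_0904 replicate 3 was the highest library as deposited. Its gap to the other treated libraries exceeded that of 76.9% and 87.2% of all tested genes. With the GC trend removed it was no longer the highest. NORAD was then at 7.136 there and 7.177 in buffer replicate 1, and TUG1 at 5.174 and 5.199 in buffer replicate 2 (log2 scale). NORAD was at 147.21, 132.94 and 131.25 TPM in buffer and at 129.91, 128.45 and 148.90 TPM in treated libraries (log2 fold change -0.016, SE 0.078, limma adjusted p = 0.930), and its sign depended on the scaling. TUG1, an RNA of nucleus and cytoplasm, had means of 34.1 ± 2.80 and 32.4 ± 3.99 TPM in the buffer and treated groups (SD, 3 libraries per group; limma adjusted p = 0.718). CYTOR, a cytoplasmic RNA linked to the cytoskeleton, had the same mean in both groups, 76.96 TPM, with SDs of 11.2 and 6.47 TPM and log2 fold changes of 0.0065 as deposited and -0.0079 with the GC trend removed; it has a near-identical copy, MIR4435-2HG, with which reads may have been shared. MIR22HG, the host of miR-22, had means of 8.55 ± 1.52 and 8.0 ± 1.54 TPM in the same order (limma adjusted p = 0.797). H19 was below the level tested, and IGF2, its imprinted neighbour, was at 2.37 and 3.06 TPM.

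The snoRNAs themselves were almost absent from the table. GENCODE 29 places 143 snoRNA or related small RNA genes inside 29 of the members on the same strand, 84 of them in SNHG14. It places none inside GAS5, so the snoRNAs of GAS5 are left out of these counts. Of these, 129 were listed at 0 in every library and 5 entered the test, with 0 past the threshold. SNORA73B, in an intron of SNHG3, was listed at 8.32, 8.39 and 9.73 TPM in buffer and at 7.0, 6.18 and 3.05 TPM in treated libraries (log2 fold change -0.67, limma adjusted p = 0.158). SCARNA13, in SNHG10, was at 0, 1.87 and 1.24 TPM in buffer and at 4.56, 1.86 and 3.37 TPM in treated libraries (adjusted p = 0.154). For SNORA73B the groups were separate, and for SCARNA13 they overlapped. Among all genes measured, 480 of 553 rows named SNORD, SNORA or SCARNA were at 0 throughout. The values of the host genes were therefore taken as host RNA, spliced or unspliced, and give no level of the snoRNAs. Some snoRNAs lie within an exon of their host, as in SNHG1, SNHG3 and SNHG25. Whether reads from these were assigned to the host was not tested.

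No tested gene of the lists of snoRNA-binding, decay or microRNA processing proteins passed the threshold. Of 15 proteins that bind or assemble snoRNAs, 0 passed and 12 were positive (37.5% of all tested genes were), with a list median of 0.08. FBL, the methyltransferase of box C/D particles, was at 846 and 875 TPM and NOP56, its core partner, at 425 and 465 TPM in buffer and treated libraries. Of 16 nonsense-mediated decay factors 0 passed, and 8 had an unadjusted p under 0.05, among which only NBAS was positive. Over all tested genes 20.8% had such a p, 4.49% higher and 16.3% lower. The list median was -0.09. EIF4A3, of the exon junction complex, was at 342 ± 54.3 and 256 ± 36.1 TPM in the buffer and treated groups (adjusted p = 0.139 in limma), and RBM8A at 174 and 181 TPM. Of 10 microRNA processing proteins 0 passed and 1 was positive (37.5% of all tested genes were), with a median of -0.10. PRKRA (59.8 and 59.0 TPM) and TARBP2 (46.9 and 42.6 TPM), both partners of Dicer, were the highest of this list.

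Of 25 protein-coding snoRNA hosts and 5′ TOP translation genes, 0 passed in either direction and 18 were positive, with a median of 0.09, next to 37.5% positive and a median of -0.062 over all tested genes. Their summed level was 34100 to 35000 TPM in buffer and 37000 to 37200 TPM in treated libraries. EEF1A1, the elongation factor that delivers tRNA, was the highest at 7838 and 8617 TPM, followed by RACK1, a ribosome-bound scaffold and snoRNA host, at 3700 and 3618 TPM (limma adjusted p = 0.246 and 0.847). By annotation, 26 tested members carry a snoRNA, GAS5 not among them, with a median of 0.07. A further 218 tested protein-coding genes carry one, with a median of 0.0036. Past the threshold 0 of these were higher and 1 lower, where 0.368% and 0.999% of all tested genes were. The called gene was RERE, a transcriptional corepressor gene (log2 fold change -0.63, limma adjusted p = 0.027). The RERE call ended with the GC trend removed (0.0575), with the replicate block (0.0829), with no filter on low TPM (0.115), and when any one library was left out other than replicate 3 of either group (adjusted p from 0.0814 to 0.127).

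Among 21 tested long noncoding and structural RNAs outside the member rule, 0 were higher and 1 was lower. This was HOTAIRM1, an antisense RNA of the HOXA cluster, at 40.80, 40.19 and 42.06 TPM in buffer and at 27.90, 28.72 and 30.38 TPM in treated libraries. The ranges were far apart relative to their spread (log2 fold change -0.49, SE 0.067, limma adjusted p = 0.0203), and with the GC trend removed the value was -0.46 (adjusted p = 0.0159). The call ended without each single library except Amuc_0904 replicate 3 (adjusted p from 0.0636 to 0.0895), with the replicate block (0.06) and with no filter on low TPM (0.0714). The list median was -0.03, and abundant RNAs of this list such as RN7SK (124.5 and 122.3 TPM) and PVT1 (89.0 and 90.2 TPM) had log2 fold changes of -0.03 and 0.02. In the member list 0 of 34 passed. Over all tested genes 1.37% did, 0.368% higher and 0.999% lower. A difference between the lists was not tested.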

How the data were processed

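Total RNA from 6 SW480 libraries was sequenced on an Illumina instrument, per the design text. The authors deposited 1 table of TPM, made with RSEM per the design text. HISAT2, StringTie and edgeR are further tools in the submitters' processing notes, which give no roles, and these notes list a mouse build (GRCm38.p6), although the identifiers are human Ensembl genes; the human annotation used is not given in the sources used here. Groups followed the labels. Genes with at least 1 TPM in at least 3 libraries were fitted as log2(TPM + 1) by limma (version 3.58.1, under R 4.3.3; trended empirical Bayes, two-sided, Benjamini-Hochberg adjustment over all 14421 tested genes, threshold 0.05). The workflow was tested on simulated data. Members and lists were chosen with earlier results of these data known. Full values were given for members with an unadjusted p under 0.05 and the 10 with the highest mean TPM. From each list up to 3 called genes, otherwise the 2 tested genes with the highest mean, were named, except items not reported here; NBAS, IGF2, RERE, CDH1 and the snoRNAs were chosen after their values were seen. GC content, length and positions came from GENCODE 29 (GRCh38), matched by gene ID, with GC content for 99.0% of tested genes. Its loess trend (span 0.3) was removed per library as an alternative. SNHG15 was not among the RefSeq starts used. Other alternatives were a pseudocount of 0.1, other TPM filters, other scalings, library weights, a replicate block and each library left out. Same-numbered libraries did not deviate together (correlations -0.029, 0.075 and -0.094), so numbers were not treated as pairs. Figures were drawn with matplotlib 3.10.9.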

Additional observations from a re-analysis of the deposited data

How the results depend on the processing

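The count of members past the threshold was 0 in each direction under every alternative run, except for 1 higher (SNHG15) with library weights. With the replicate block it was 0 higher and 0 lower, the smallest adjusted p of a member was 0.0968, and calls over all genes went from 197 to 80. The median log2 fold change of tested members, 0.00607, was 0.0865 with centred libraries and 0.066 with quantile normalization. It was 0.0706 with the GC trend removed and 0.0821 with the length trend removed. Over all tested genes the median also moved, from -0.0619 to 0.0185 with centred libraries and to -0.00164 with the GC trend removed. Without single libraries the members' median ranged from -0.00247 to 0.0377. The ratio of summed TPM, 1.03, ranged from 1.0 to 1.05 without single libraries. Of 223 values of 14 members under alternatives, 211 kept their sign and side of the threshold. NORAD (log2 fold change -0.016) turned to 0.0646 when centred, 0.00819 with quantile normalization, 0.0109 without ribosomal protein and mitochondrial genes and 0.0716 with the length trend removed, and DANCR to 0.0216 with the GC trend removed. Without single libraries NORAD ranged from -0.0837 to 0.0359, SNHG19 from -0.103 to 0.194, SNHG6 from -0.000993 to 0.187 and MALAT1 from -0.307 to 0.0134. The causes of these changes were not tested. Depth is unknown, so a missed threshold does not show that a member was unchanged.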
